A study of Rattus norvegicus with 12 samples.

Results

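The genes described here encode 9 subunits of the potassium channels that repolarise heart muscle cells: Kcnd2, Kcnd3, Kcnip2 and Kcna4 of the transient outward current, Kcna5 and Kcnq1 of the delayed rectifiers, and Kcnj2, Kcnj3 and Kcnj11 of the inward rectifiers. All probe sets of these genes were taken by gene symbol, and the genes were chosen with earlier results of these data known. Of 20826 probe sets that carry a single gene symbol, for 14217 genes, 18 belonged to these 9 genes. A total of 14 probe sets, for 8 of the 9 genes, were bright enough to be tested, and Kcnj2 was not.

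RNA came from the hearts of male Sprague-Dawley rats, from left ventricular free wall remote from an infarct made by ligating the left anterior descending coronary artery. Diabetic rats had received streptozotocin, a toxin of pancreatic beta cells, at 65 mg/kg, non-diabetic rats citrate buffer, both 10 weeks before surgery and with no control of blood sugar at any time. Tissue came from sham-operated rats and from rats killed 1, 7, 14, 28 or 56 days after ligation. At each of these 6 time points there was 1 diabetic and 1 non-diabetic array, 12 in all, and each array held RNA pooled from 3 rats. Labelled ages were the same in both conditions for sham and day 1 (18 weeks), day 7 (19 weeks), day 14 (20 weeks) and day 28 (22 weeks), and for day 56 they were 26 weeks in the diabetic and 22 weeks in the non-diabetic rats. How long the sham-operated rats lived after surgery is not stated in the labels.

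No condition and time point had a second array, so no p-value rests on a spread between rats. For diabetes and for each day against sham the spread is how the difference between diabetic and non-diabetic arrays varied over time, and for the slope it also holds the scatter of the days about the line. A day was compared with sham over both conditions together, 2 arrays against 2, and the 5 day comparisons share the same sham arrays. Values are the authors' intensities, a brightness with no unit in molecules, and differences are on the scale of log2(intensity + 16), which makes the differences of dim genes smaller than they are. Levels are not compared between genes. In tissue RNA, fewer cells of a type and less RNA per cell cannot be told apart.

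A ventricular action potential ends when potassium leaves the cell through several kinds of channel. In adult rat ventricle the transient outward current, carried by Kv4 channels, dominates early repolarisation and keeps the action potential short. Delayed rectifiers open more slowly, and inward rectifiers set the resting potential or respond to acetylcholine or to the energy state of the cell.

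Kcnip2 encodes KChIP2, a calcium-binding accessory subunit that brings Kv4 channels to the cell surface and slows their inactivation. In the GRCr8 annotation the gene lies on the minus strand at chr1:254590172-254614437. Kcnip2 fell 3.50-fold on day 1 after ligation and lay between -0.12 and 0.05 log2 units from sham from day 14 on. Of the 8 tested members 1, Kcnip2, passed the test on day 1.

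The brighter of its probe sets, 1373987_at, read 2175 in diabetic sham myocardium and 411, 1249, 1795, 1978 and 2114.5 on days 1, 7, 14, 28 and 56 of diabetic rats. In non-diabetic rats it read 1858 after the sham operation and 771, 1133, 2418, 1722 and 1836 on the same days. Both day 1 arrays lay below all 10 others, and the day 7 arrays came next. From day 14 on the values were spread around those of sham. On the log2 scale day 1 was lower than sham by a difference of -1.81 ± 0.28 (SE, 95% interval -2.43 to -1.18, limma adjusted p = 0.0045). Among all 18625 tested probe sets 7.47% passed on day 1, 4.2% as higher and 3.27% as lower. The difference from sham was -0.75 on day 7 (adjusted p = 0.13), 0.05 on day 14, -0.12 on day 28 and -0.03 on day 56.

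A second probe set, 1370773_a_at, gave a day 1 difference of -2.00 ± 0.36 (SE, adjusted p = 0.0099), or 3.99-fold lower. It read 833 in diabetic sham tissue, 123 on diabetic day 1 and between 377 and 828 on the later diabetic days. In non-diabetic tissue it read 648 after sham and 239 on day 1, with 467 to 1048 later. Across the 12 arrays the pair of probe sets had a Pearson r of 0.979. The third, 1368639_at, read 11.99 to 24.7 over the 12 arrays, with a mean below the limit for testing, and its day 1 values of 17.3 in diabetic and 15.7 in non-diabetic rats lay within the range of the other arrays.

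Within diabetic rats Kcnip2 was 5.13-fold lower on day 1 than after sham, and within non-diabetic rats 2.38-fold lower. The diabetic minus non-diabetic difference was -0.88 on day 1 and between -0.43 and 0.23 at the other 5 time points. A gap on a single day rests on 1 array of each condition and has no test. Over all 6 time points the difference between conditions was -0.09 ± 0.16 (SE, 95% interval -0.45 to 0.27, adjusted p = 0.88).

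**Figure D1:**
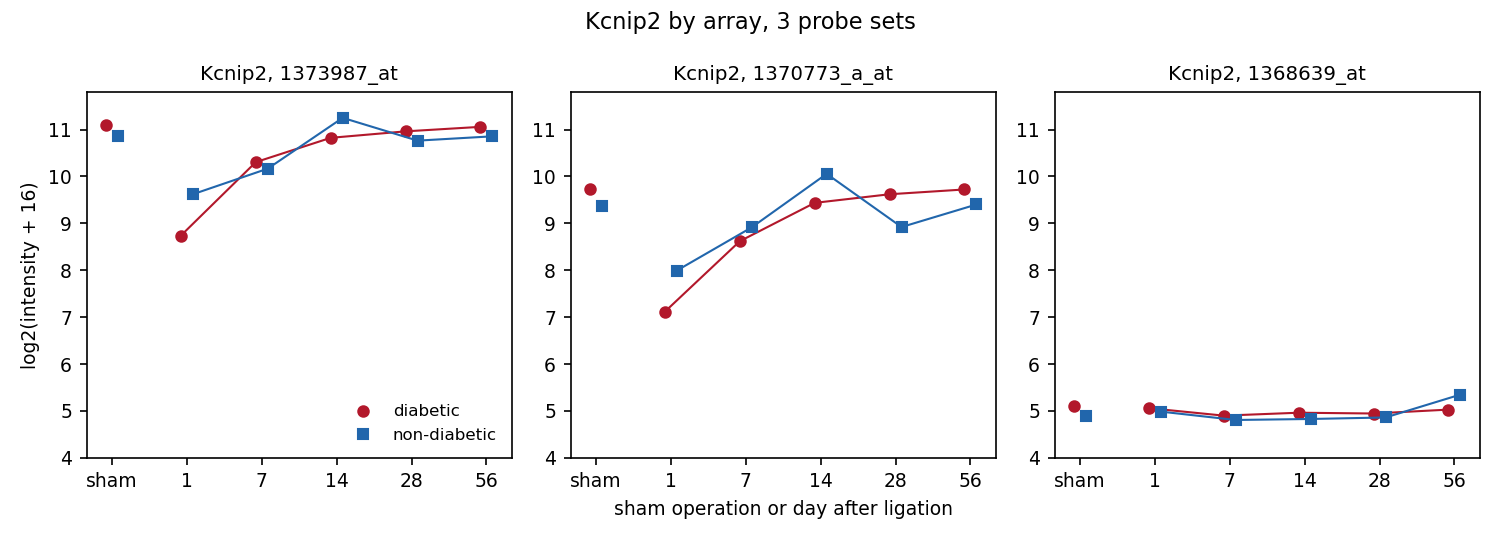
Kcnip2 on each of the 12 arrays, as log2(intensity + 16) against the sham operation or the day after ligation, for the 3 probe sets; each point is 1 array of pooled RNA, diabetic as circles and non-diabetic as squares, and lines join the days after ligation. The left and middle probe sets are lowest on day 1 in both conditions, at 8.74 in diabetic and 9.62 in non-diabetic rats for the left one, while the right one stays near its floor.

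Over the 5 days after ligation Kcnip2 rose by 0.33 ± 0.06 log2 units for each doubling of the day (SE, adjusted p = 0.011), and 1370773_a_at by 0.36 ± 0.07 (adjusted p = 0.019). Of all tested probe sets 9.92% had a slope past the test, 3.96% rising and 5.97% falling. The slope rests on the early arrays. Without the day 1 and day 7 arrays it was -0.04 (adjusted p = 0.87), without the day 1 pair 0.20 (0.21), without the diabetic day 1 array 0.24 (0.091) and without the day 56 pair 0.39 (0.11). The day 1 call was lost without the diabetic day 1 array, at -1.33 (adjusted p = 0.052), and without the diabetic sham array, at -1.62 (adjusted p = 0.091).

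Other properties of the arrays moved with day 1 and day 7. The 3′ minus 5′ difference of the beta-actin control probe sets, a sign of RNA integrity or labelling, was 0.982 to 1.00 on the 4 arrays of days 1 and 7, against 0.368 to 0.589 on the other 8, and that of GAPDH was 0.317 to 0.360 against 0.114 to 0.479. The 5′ hexokinase control probe set was dimmer at days 1 and 7, at 0.0587 to 3.19, than elsewhere, at 14.2 to 82.9. Summed macrophage markers, 7 of 7 above the limit for testing, read 5415 to 6318 on day 1 and 3462 to 3763 in sham. Of the 7, 4 had a day 1 difference above 0 and 3 below (Csf1r, C1qa and C1qb), and 0 passed the test. The brightest in the sum, Lyz2, had log2 values of 12.12 in diabetic and 11.76 in non-diabetic rats on day 1, against 10.9 in both sham arrays. Fibroblast markers, 7 of 7 above the limit, summed to 4713 to 5071 on day 1 and 17963 to 18254 on day 7, against 5330 to 6911 in sham. Ventricular cardiomyocyte markers, 11 of 11 with a probe set, marked the tissue as labelled and summed to 50004 to 63248 on day 1, against 56471 to 63875 in sham; 0 of the 11 passed the test on day 1, with a median difference of -0.10. The part of these in the Kcnip2 result was not tested.

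Kcnd2 encodes Kv4.2, a pore-forming subunit that KChIP2 binds, and lies at chr4:50741595-51243540. Its level did not pass the test in any comparison. Probe set 1379863_at read 43.3 in diabetic sham tissue and 17.8, 40.9, 29.4, 41.8 and 43.2 on diabetic days 1, 7, 14, 28 and 56, against 58.7 in non-diabetic sham tissue and 78.1, 62.8, 56.2, 31.9 and 70.3 on the non-diabetic days. The diabetic array was the lower one at 5 of 6 time points, with day 28 the exception, and the ranges of the conditions overlapped. The mean difference was -0.54 ± 0.19 (SE, 95% interval -0.95 to -0.13, adjusted p = 0.34). A second probe set, 1387476_at, also had the diabetic array lower in 5 of 6 pairs, at -0.45 ± 0.15 (adjusted p = 0.33). Day 1 differed from sham by -0.24 ± 0.32 (adjusted p = 0.68), with -0.81 in diabetic and 0.33 in non-diabetic rats.

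Kcnd3 encodes Kv4.3, the other Kv4 pore subunit of rat ventricle, at chr2:195626316-195843690. Probe set 1378111_at read 33.7, 23.4, 57.5, 18.6, 49.8 and 47.6 in diabetic rats from sham to day 56, against 28.4, 36.3, 49.6, 13.1, 16.4 and 59.4 in non-diabetic rats. It was low in both conditions on day 14 and high in both on days 7 and 56, and no difference passed the test. Diabetic rats differed from non-diabetic ones by 0.16 ± 0.17 (SE, adjusted p = 0.78). The other 2 probe sets of Kcnd3 were too dim to test.

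Kcna4 encodes Kv1.4, a subunit of a slowly recovering transient outward current that is more prominent in newborn than in adult rat ventricle. The gene lies at chr3:114211091-114218545. Its probe set 1369043_at read 54.4 in diabetic sham tissue and 26.1, 81.0, 37.7, 63.4 and 37.1 on the diabetic days, against 16.6 in non-diabetic sham tissue and 32.8, 19.5, 13.7, 8.86 and 11.1 on the non-diabetic days. The diabetic array was the higher one at 5 of 6 time points, by 0.86 to 1.68 log2 units, and on day 1 it was lower by a difference of -0.21. Apart from the day 1 arrays, every diabetic value lay above every non-diabetic one.

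Over all time points Kcna4 was 1.97-fold as high in diabetic as in non-diabetic rats, a difference of 0.97 ± 0.20 (SE, 95% interval 0.53 to 1.42), with means of 5.99 ± 0.44 in diabetic and 5.01 ± 0.34 in non-diabetic rats (SD over 6 time points each). It missed the test with an adjusted p of 0.090, at an unadjusted p of 5.2e-04 from limma. For diabetes 0.376% of all tested probe sets passed, and 0 of the 8 members did. Without the day 1 pair the difference was 1.21 (adjusted p = 0.010), and without the day 1 and day 7 arrays 1.15 (adjusted p = 0.043). Without the sham, day 7, day 14, day 28 or day 56 pair it was 0.83 to 1.00, with adjusted p-values from 0.12 to 0.32, and it passed in 4 of 26 alternatives. The non-diabetic mean lay under the limit of 5.20 for the mean over all arrays, so the gene was tested because of its diabetic level.

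**Figure D2:**
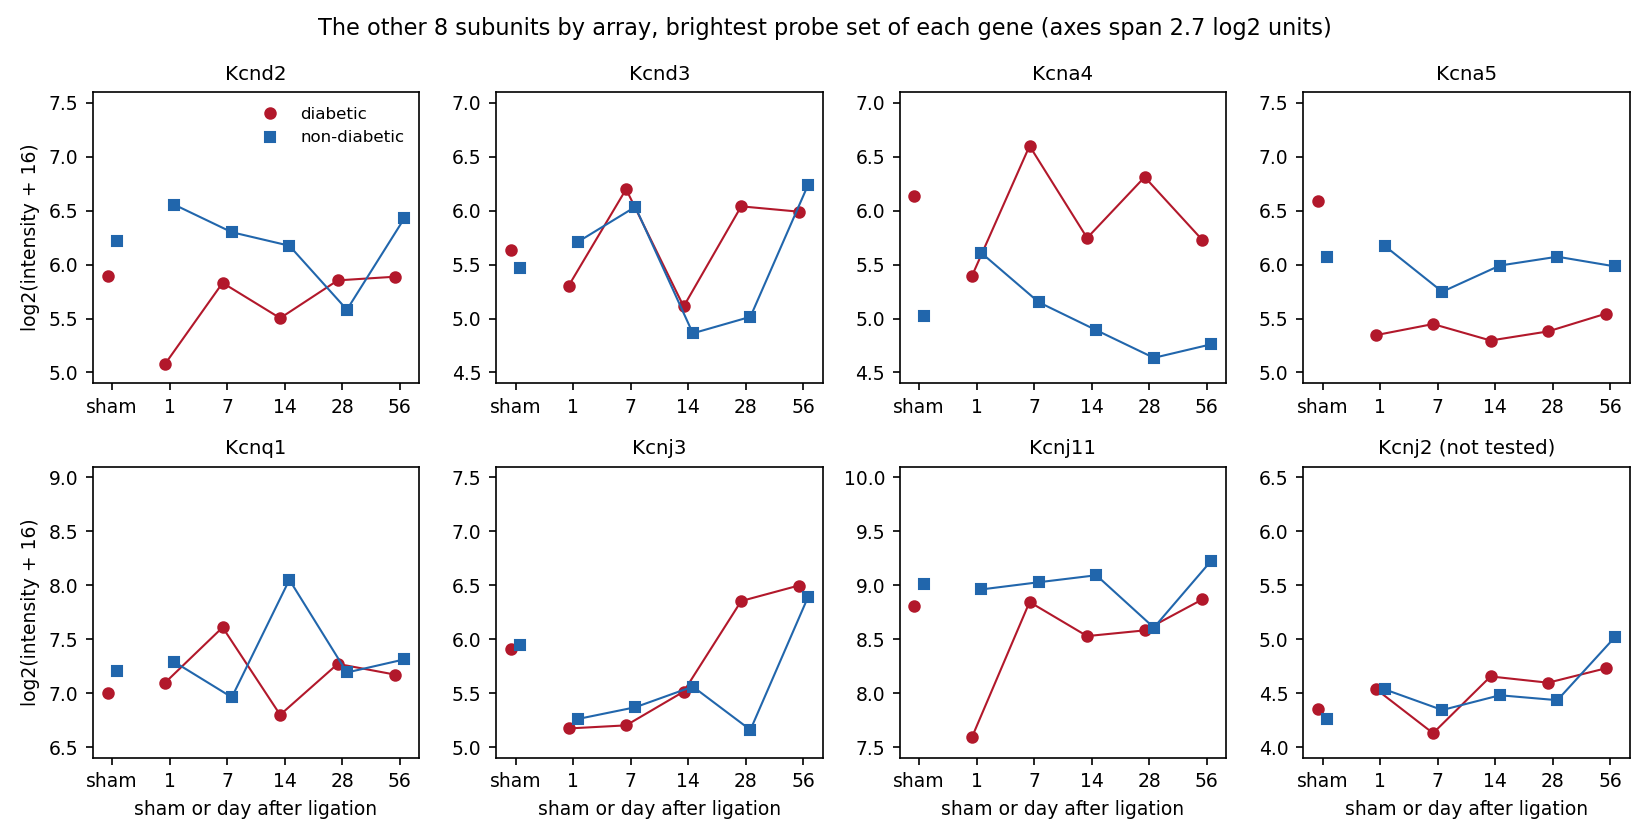
The other 8 genes on each array, as log2(intensity + 16) of the brightest probe set of each, against sham or the day after ligation; each point is 1 array, diabetic as circles and non-diabetic as squares. Kcna4 is higher in diabetic rats except on day 1, Kcna5 is lower in diabetic rats on all 5 days after ligation but higher in diabetic sham, and Kcnj2 stays below the limit of 5.20 throughout.

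For 3 of the 4 transient outward genes, Kcnip2, Kcnd2 and Kcna4, the promoters are set side by side below by 250 bases read 5′ to 3′ on the gene's strand, from RefSeq on GRCr8. They end just before the start used in that promoter table, which for these genes lies inside the annotated gene span. Capitals mark CACCC, or GGGTG where it lies on the other strand, letters of the kind bound by Kruppel-like factors such as KLF15, which in mice is known to act on Kcnip2. The windows are chr1:254613899-254614148 on the minus strand for Kcnip2, chr4:50742235-50742484 on the plus strand for Kcnd2 and chr3:114215086-114215335 on the plus strand for Kcna4.
Kcnip2: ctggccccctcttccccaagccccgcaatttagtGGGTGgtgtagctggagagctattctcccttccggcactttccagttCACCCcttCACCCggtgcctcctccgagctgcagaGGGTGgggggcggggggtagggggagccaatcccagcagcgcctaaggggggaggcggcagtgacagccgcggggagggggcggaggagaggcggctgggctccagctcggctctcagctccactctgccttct
Kcnd2: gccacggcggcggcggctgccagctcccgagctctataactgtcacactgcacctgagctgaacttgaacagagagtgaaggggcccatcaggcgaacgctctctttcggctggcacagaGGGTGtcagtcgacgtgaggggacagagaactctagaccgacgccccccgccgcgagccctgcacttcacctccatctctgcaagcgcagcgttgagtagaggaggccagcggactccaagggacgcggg
Kcna4: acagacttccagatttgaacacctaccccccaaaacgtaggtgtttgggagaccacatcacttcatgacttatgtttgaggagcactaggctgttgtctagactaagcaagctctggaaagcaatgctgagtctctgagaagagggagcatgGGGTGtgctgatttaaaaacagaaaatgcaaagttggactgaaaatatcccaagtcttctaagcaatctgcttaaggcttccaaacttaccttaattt
Kcnip2 held 4 such runs, at positions -216, -169, -161 and -134 from the start, Kcnd2 held 1 at -130 and Kcna4 1 at -98. Of 33469 rat promoters of 300 bases, the same 250 with 50 after the start, 54.9% held at least 1, as did 5 of the 6 members with an entry. The exception was Kcnd3, the other transient outward gene, which held 0 and is not printed. GATA on either strand was in 60.5% of promoters and in 2 of the 6, CANNTG in 72.1% and 5 of the 6, TGACG in 21.2%, TATAAA in 14.2% and ACATGT in 5.7%, these last in 0 of the 6. The CACCC runs do not overlap one another.

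Of 14 regulators of these genes that were looked up, all tested, 2 were higher and 1 lower on day 1. Over all tested probe sets 4.2% were higher and 3.27% lower. On day 7 the regulators had 1 higher and 1 lower call, against 4.67% and 2.97% of all tested probe sets. For the slope they had 1 rising and 1 falling call, against 3.96% and 5.97%. Irx5, a homeobox repressor of Kcnd2 in mouse ventricle, was higher by 0.85 ± 0.22 on day 1 (adjusted p = 0.043) and 0.90 ± 0.22 on day 7 (adjusted p = 0.033). Tbx5, a cardiac T-box factor, was higher by 1.14 on day 1 (adjusted p = 0.045), and Rest, a repressor of neuronal genes, was lower by a difference of -1.57 (adjusted p = 0.0053). Rest lay near the floor of the scale, at 4.00 in diabetic and 4.14 in non-diabetic rats on day 1. On day 7 it had 4.21 in diabetic and 4.25 in non-diabetic rats, against 5.87 and 5.40 after sham. The part of the RNA quality differences of days 1 and 7 in these regulator calls was not tested. Klf15 had 8.00 in diabetic and 8.86 in non-diabetic rats on day 1, against 9.29 in diabetic and 9.21 in non-diabetic sham tissue on the log2 scale, a difference of -0.82 ± 0.35 that missed the test (adjusted p = 0.17). Hopx, a homeodomain protein without DNA binding, was lower in diabetic rats by a difference of -1.02 (adjusted p = 0.046). It was the 1 lower call of the 14 for diabetes, with 0 higher, against 0.226% and 0.15% of all tested probe sets.

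Kcna5 encodes Kv1.5, the pore of an ultrarapid delayed rectifier, at chr4:161040853-161044311. Probe set 1370268_at read 80.3 in diabetic sham tissue and 24.7, 27.7, 23.3, 25.7 and 30.7 on the diabetic days, against 51.3 in non-diabetic sham tissue and 56.2, 37.8, 47.6, 51.3 and 47.3 on the non-diabetic days. All 5 diabetic arrays after ligation were below all 6 non-diabetic ones, and the diabetic sham array was the highest of the 12. The mean difference between conditions was -0.41 ± 0.17 (SE, adjusted p = 0.43).

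After ligation Kcna5 differed from sham by -1.29 to -1.04 log2 units in diabetic rats, while the non-diabetic days differed from their sham by -0.32 to 0.10. The interaction of diabetes with ligation was -1.11 ± 0.35 (SE, 95% interval -1.87 to -0.35), with an unadjusted p of 0.0085 and a limma adjusted p of 1. No tested probe set passed for that interaction (0%), and 0.671% had an unadjusted p under 0.05. All 5 diabetic differences are taken from 1 sham array.

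Kcnq1 encodes KvLQT1, the pore of the slow delayed rectifier, at chr1:207721134-208054073. It read 112, 121, 179, 95.3, 138 and 128 in diabetic rats from sham to day 56, against 132, 140, 109, 249, 130 and 143 in non-diabetic rats. The conditions overlapped, with the non-diabetic array the highest and the diabetic one the lowest of all on day 14. The mean difference was -0.18 ± 0.21 (SE, 95% interval -0.64 to 0.28, adjusted p = 0.80), and day 1 differed from sham by 0.09 ± 0.36.

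Kcnj11 encodes Kir6.2, the pore of the channel that opens when cellular ATP falls, at chr1:105727473-105731167. Probe set 1391007_s_at read 432 in diabetic sham tissue and 177, 444, 353, 367 and 451 on the diabetic days, against 500.2 in non-diabetic sham tissue and 482, 506, 530, 374 and 584 on the non-diabetic days. The diabetic array was the lower one in all 6 pairs, by as little as 0.03 on day 28 and as much as 1.37 on day 1, and the ranges overlapped. The mean difference was -0.45 ± 0.18 (SE, 95% interval -0.85 to -0.05, adjusted p = 0.41). The other probe sets gave -0.31 (1387698_at, adjusted p = 0.57) and -0.08 (1369782_a_at, adjusted p = 0.92).

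On day 1 the 3 probe sets of Kcnj11 differed from sham by -0.63 (adjusted p = 0.24), -0.87 (adjusted p = 0.10) and -1.13 ± 0.34 (adjusted p = 0.068). All 3 were at their lowest of the 12 arrays on diabetic day 1. The suffix of 1391007_s_at marks, in the array maker's naming, a probe set that can match more than 1 transcript.

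**Figure D3:**
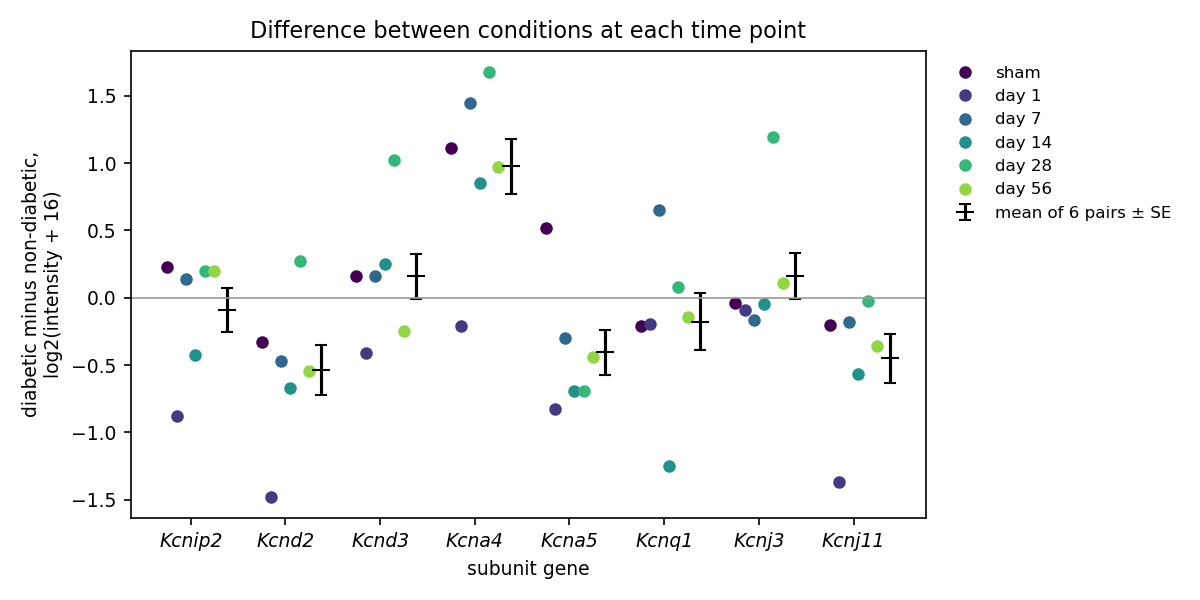
Diabetic minus non-diabetic log2(intensity + 16) at each time point, for the 8 tested genes; each point is 1 pair of arrays, coloured by time point, and the bar gives the mean of the 6 pairs ± SE from limma. Kcna4 lies above 0 in 5 of 6 pairs and Kcnj11 below 0 in all 6, and the day 1 point is the lowest for Kcnip2, Kcnd2, Kcnd3, Kcna4, Kcna5 and Kcnj11.

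Kcnj3 encodes Kir3.1, a subunit of the acetylcholine-gated channel found mostly in atrium, at chr3:60353990-60518110. Probe set 1369741_at read 44.1 in diabetic sham tissue and 20.1, 20.8, 29.7, 65.8 and 74.3 on the diabetic days, against 45.6 in non-diabetic sham tissue and 22.3, 25.3, 31.2, 19.7 and 67.8 on the non-diabetic days. Both conditions were low on days 1 and 7 and high on day 56, and they parted on day 28. Day 1 differed from sham by -0.71 ± 0.30 (SE, adjusted p = 0.16), and the slope was 0.19 ± 0.06 (adjusted p = 0.061). The other probe sets had day 1 differences of -0.41 (1388292_at, adjusted p = 0.20) and -0.49 (1369740_at, adjusted p = 0.14).

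For diabetes the probe sets of Kcnj3 disagreed in sign. They gave 0.16 (1369741_at), -0.23 (1388292_at, lower in 6 of 6 pairs) and 0.30 (1369740_at, higher in 5 of 6 pairs), with adjusted p-values of 0.78, 0.49 and 0.38. Their Pearson r over the 12 arrays lay between 0.064 and 0.727. Without either day 28 array the day 1 difference of 1369741_at kept its size and passed the test (adjusted p = 0.021 without the diabetic and 0.023 without the non-diabetic one).

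Kcnj2 encodes Kir2.1, a main subunit of the current that holds the resting potential, at chr10:96560225-96570788. Its 1 probe set read 1.49 to 10.5 in diabetic and 3.14 to 16.4 in non-diabetic rats, at the 13.5th percentile of all probe sets by mean. It was below the limit for testing on every array, and no difference is given.

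Taking the members by current, the 4 transient outward genes had a median day 1 difference of -0.16, with 1 lower call and 4 of 4 below 0. The 2 delayed rectifier genes had a median of -0.24 and the 2 tested inward rectifier genes -0.67, both without a call. The 8 tested genes together had a median of -0.41, against 0.09 over all 10623 genes tested. An unadjusted limma p under 0.05 on day 1 was reached by 2 of the 8 and by 25.5% of all tested probe sets. In non-diabetic rats the day 1 differences were 0.33 for Kcnd2, 0.24 for Kcnd3, 0.58 for Kcna4, 0.10 for Kcna5 and 0.08 for Kcnq1. Those of Kcnj11, Kcnj3 and Kcnip2 were -0.05, -0.69 and -1.25. In diabetic rats Kcnq1 differed by 0.10 and the others by -2.36 to -0.33. Each of these rests on 1 array against 1 and has no test. On day 7, when 7.65% of all probe sets passed (4.67% higher, 2.97% lower), 0 of the 8 did and their median was 0.02, against 0.16 over all genes. On days 14, 28 and 56 no probe set of the whole table passed with limma, while 11.7%, 3.62% and 16.4% had an unadjusted p under 0.05, as did 1, 0 and 0 of the 8 members.

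**Figure D4:**
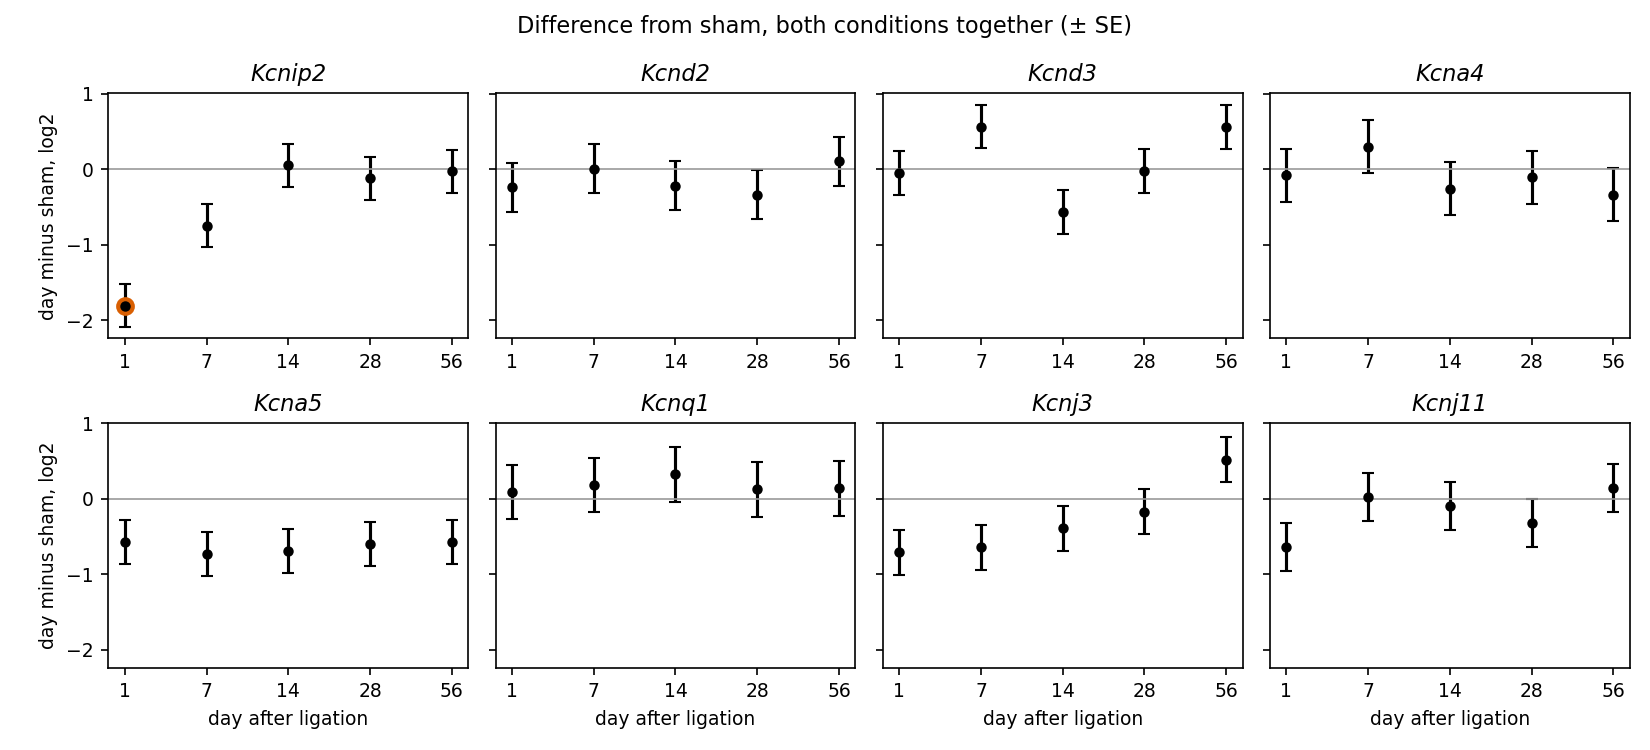
Difference of each day from sham in log2(intensity + 16), both conditions together, for the 8 tested genes; points are limma estimates and bars their SE, and the filled ring marks an adjusted p under 0.05. Kcnip2 on day 1 carries the 1 ring, at -1.81, and its later points approach 0.

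For diabetes the 8 genes had 3 differences above 0 and 5 below, a median of -0.13 against -0.01 over all genes, and 4 unadjusted p-values under 0.05, a level that 10.6% of all tested probe sets reached. The diabetic day 1 array gave the lowest value in 9 of the 14 tested member probe sets, while it was lowest for 15.2% of all 18625. These 9 belong to Kcnd2, Kcnip2, Kcnj3 and Kcnj11 alone, and probe sets of the same gene are not independent. By the brightest probe set of each gene, it was lowest for Kcnd2, Kcnip2 and Kcnj11 and for no other member. The slope over days was past the test for 1 of 8, Kcnip2, and 2 of 8 had an unadjusted p under 0.05, as did 30.2% of all tested probe sets. The test was passed by 0 of 8 for the interaction with ligation. For that of diabetes with log2 of the day it was passed by 0 of 8 and by 0% of all probe sets, 4.5% of which had an unadjusted p under 0.05, as did 2 of the 8, Kcnd2 and Kcna4. Of the 5 atrial muscle markers measured, Sln was below the limit. Atrial markers summed to 6739 to 9064 on diabetic and 3036 to 8435 on non-diabetic arrays, ranges that overlapped. The 4 tested had a median difference of 0.65, with 4 above 0 and 0 below, and 0 passed the test. An unadjusted limma p under 0.05 was reached by 3 of the 4. The brightest in the sum, Nppa, had log2 values of 12.49 to 12.87 in diabetic and 11.13 to 12.80 in non-diabetic rats. Myl7 was lower in diabetic rats after sham (5.90 against 7.44) and on day 14 (7.38 against 8.88), and higher on the other days. Dkk3 was higher in diabetic rats at every time point, and Myl4 at all but day 28. Neuron markers, 4 of 6 below the limit, summed to 118 to 471 on diabetic and 170 to 730 on non-diabetic arrays. Their part in the differences of Kcna4 and Kcnj3 was not tested.

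Among the other potassium channel genes, 48 of 56 listed had a probe set and 27 were tested. On day 1 6 were lower and 0 higher, against 3.27% and 4.2% of all tested probe sets. Their median was -0.17, against 0.09 over all genes. Kcnh2, the pore of the rapid delayed rectifier, had 5.10 in diabetic and 5.50 in non-diabetic rats on day 1, against 6.97 in diabetic and 6.38 in non-diabetic sham tissue on the log2 scale, a difference of -1.37 ± 0.34 (SE, adjusted p = 0.035), and a rising slope of 0.28 (adjusted p = 0.018). Kcnj4, an inward rectifier, differed by -1.47 on day 1 and -1.68 on day 7 (adjusted p = 0.017 and 0.0085). The beta subunit Kcnab2 differed by -1.32 on day 1 (adjusted p = 0.025). On that day it had 4.94 in diabetic rats, below the limit for the mean over all arrays, and 5.42 in non-diabetic rats.

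The calcium-activated channels Kcnn1 and Kcnn3 were lower on both days. Kcnn1 differed from sham by -2.60 on day 1 and -2.88 on day 7 (adjusted p = 1.5e-04 and 1.3e-04), and Kcnn3 by -1.16 and -1.29 (0.016 and 0.0092). The pacemaker channel Hcn4 differed by -0.99 and -1.42 (0.038 and 0.0084). Its log2 values were 5.05 in diabetic and 4.85 in non-diabetic rats on day 1, and 4.55 and 4.50 on day 7. These lay below the limit that was set for the mean over all arrays, so Hcn4 was tested because of its other arrays. On days 1 and 7 Kcnn1 had log2 values of 5.19 to 5.55 and Kcnn3 of 5.09 to 5.54, near that limit. The part of the RNA quality differences of days 1 and 7 in these channel calls was not tested. On day 7 these 4 genes, Kcnj4, Kcnn1, Kcnn3 and Hcn4, were the lower calls and Kcnj15, an inward rectifier, the 1 higher call, at 1.89 (adjusted p = 0.0034). Of all tested probe sets 2.97% were lower and 4.67% higher on day 7. Rising slopes were called for 6 of the 27, namely Kcnh2, Kcnj4, Abcc8, Kcnn1, Kcnn3 and Hcn4, and no falling one. Among all tested probe sets 3.96% rose and 5.97% fell past the test. For diabetes 0 of the 27 passed, with 4 at an unadjusted p under 0.05 by limma. The shares of all tested probe sets were 0.376% and 10.6%.

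Kcnj5, Kcnj8, Abcc9, Kcnj12 and Kcnk3 did not pass the test on day 1. Kcnj5, which pairs with Kcnj3, differed by 0.23 on day 1 (adjusted p = 0.59). Kcnj8, the other ATP-sensitive pore, differed by -0.77 (adjusted p = 0.12), and the sulfonylurea receptor Abcc9 by -0.11 (adjusted p = 0.85). Kcnj12, an inward rectifier that pairs with Kcnj2, differed by -0.02 (adjusted p = 0.98), and Kcnk3, a background channel, by 0.10 (adjusted p = 0.88). Kcne1, the partner of Kcnq1, was below the limit for testing. A further list held sodium and calcium channel subunits, together with the connexin gene Gja1 and the sodium-calcium exchanger gene Slc8a1. Of its 8 tested genes, 2 were higher and 0 lower on day 1, against 4.2% and 3.27% of all tested probe sets.

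**Figure D5:**
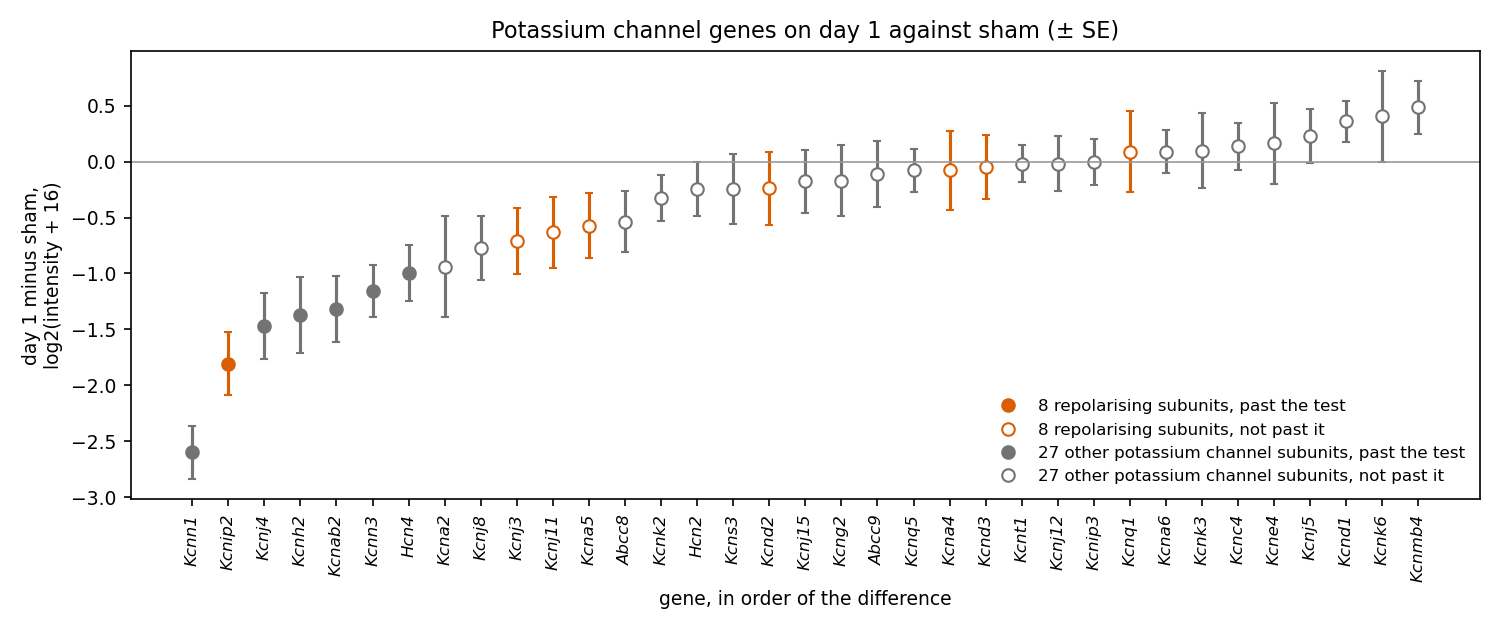
Day 1 minus sham in log2(intensity + 16) ± SE for the 8 tested repolarising subunits (orange) and 27 other potassium channel subunits (grey), ordered by the difference; filled points passed the limma test across all probe sets and open ones did not. Kcnip2 has the second lowest value after Kcnn1, and the other filled points are Kcnj4, Kcnh2, Kcnab2, Kcnn3 and Hcn4.

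Over the 12 arrays the genes whose log2 values were most like those of Kcnip2, among 10622 others, were Dhrs3 (Pearson r = 0.968), Sord (0.951), Tpra1 (0.941), Apc2 (0.940) and Rasgrf2 (0.938). For Kcna4 they were Impa2 (0.929), Cyp2e1 (0.911) and Usp36 (0.890), for Kcnd3 Prox1 (0.948), Mtss1 (0.926) and Pcmtd1 (0.923), and for Kcnj3 Acacb (0.930), LOC102555109 (0.930) and Akap6 (0.929). Kcnd2 was most like Lmod3 (0.888), Kcnj11 (0.887) and Sh3rf3 (0.868), and Kcnj11 most like Dele1 (0.933), the alpha myosin heavy chain gene Myh6 (0.929) and Sh3rf3 (0.923). The closest genes were Ripk4 (0.812) for Kcna5 and Paqr6 (0.915) for Kcnq1. These values describe the same 12 pooled arrays, which share the array differences given above.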

How the data were processed

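The authors deposited 1 linear intensity per probe set and array, made with Affymetrix Expression Console and PLIER per the submitters' processing notes; their versions and any scaling are not given in the sources used. Median intensities ran from 28.8 to 34.7, and the 12 arrays limit the precision. Groups came from the labels, and the protocol was followed where the tissue label of the sham arrays mentions an infarct.

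From the 31099 probe sets, 57 controls were removed. Intensities were used as log2(intensity + 16), and the 18625 probe sets with a mean above the 40th percentile (5.20) were tested. limma 3.58.1 in R 4.3.3 fitted time point and diabetes to 12 arrays, with 5 residual degrees of freedom and moderated variances with a trend. Benjamini-Hochberg adjustment ran over all 18625, at 0.05. The slope on log2 of the day and its interaction used the 10 ligated arrays. A gene is represented by its brightest probe set. All members are named, other potassium channel genes and regulators where they passed or from a short list, and likeness by the highest Pearson r. The members and lists were chosen with earlier results of these data known. Promoters are from RefSeq (GRCr8), where 6 of the 9 members had an entry.

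In a test on simulated data, 200 of the 18625 probe sets were changed, and log2 changes of 1 and 2 were recovered in 81% and 97% for diabetes, 1% and 82.5% for day 1, 30% and 94% for the slope, 0% and 26% for the interaction with ligation, and 0% at both sizes for the interaction with log2 of the day. Alternatives were other offsets, scalings and filters, no trend, the mean of a gene's probe sets, and leaving out arrays.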

Additional observations from a re-analysis of the deposited data

How the results depend on the processing

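Of 24 alternatives, 22 kept the day 1 call of Kcnip2, with values from -2.28 to -1.33 and adjusted p-values from 0.0018 to 0.091, and 20 of 24 kept its rising slope. The slope reversed without the day 1 and day 7 arrays, to -0.040, where no member passed for the slope (0) and 1, Kcna4, passed for diabetes. With the mean of all probe sets of a gene, 2 members, Kcnip2 and Kcnj3, had slopes past the test. Leaving out an array or a pair gave 0 to 1 members past the test for diabetes, 0 to 2 for day 1, 0 to 1 for day 7 and 0 to 2 for the slope. The member added for diabetes was Kcna4, without either or both day 1 arrays, and for days 1 and 7 it was Kcnj3, without either or both day 28 arrays, and for the slope Kcnj3 without the non-diabetic day 28 array. Without the day 28 pair 2701 and 2846 of all 18625 probe sets passed on days 1 and 7, against 1392 and 1424 with all arrays. The cause of these changes was not tested. Counts for days 14, 28 and 56 and both interactions were 0 in every alternative run. Kcna4 had a diabetic minus non-diabetic difference of 0.48 with an offset of 64 and 1.52 with an offset of 1. A filter at the 60th percentile left Kcnip2, Kcnq1 and Kcnj11 to test. In the simulation, with 200 probe sets changed, 1% of day 1 changes of log2 size 1 were called. In the data 7.47% of probe sets passed on day 1, which eases the adjusted threshold, so the simulated share need not hold here. Members that missed the test on day 1 are not shown to be unchanged. The model pairs the conditions by time point, and the arrays carry no replicate numbers by which to block them otherwise.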
